A study of Homo sapiens with 4 samples.

Results

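The m6A sites of VEGFA were examined in chromatin-associated RNA of K562, a cell line established from a human chronic myeloid leukaemia. VEGFA encodes vascular endothelial growth factor A, a secreted ligand that drives the growth of blood vessels by binding receptor tyrosine kinases on endothelial cells. The sites were chosen by position: every row of the deposited m6A-SAC-seq table that lay on the plus strand of hg38 within the annotated gene was taken, which gave 4 of the 275 listed sites. Because the table holds adenines that had passed cut-offs on mutation frequency, the members were also selected on measured values, and their levels are given as a description without a test.

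The experiment comprised 4 libraries of wild-type K562 RNA, 1 per condition. Chromatin-associated RNA depleted of ribosomal RNA was sequenced either as input or after pulldown by purified, His-tagged RBFOX2. Each of these was either treated with the recombinant methyltransferase MjDim1 or left untreated. Pulldown used isolated RNA and recombinant protein, so binding in the cell was not what was measured, and the labels call K562 a hepatoma line although it is of leukaemic origin. The table gives 2 m6A levels per site as percentages, together with the second divided by the first (called the ratio below). It names no library for either level, so values are compared only as second against first. Read counts are not part of the table used here. The percentages may be fractions of whole reads. Second levels of 33.3333% and of 50% each recur at different sites, as fractions of few reads could, so some levels may rest on few reads. Depth was not worked back from the percentages. The error of a single level was therefore not estimated. With single libraries, no difference between levels can be set against a replicate error.

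N6-methyladenosine (m6A) is deposited on nascent RNA by the METTL3–METTL14 complex, which prefers the motif DRACH (D is any base but C; R is A or G; H is any base but G). In mRNA the mark is known to gather near stop codons and in 3′ UTRs, where reader proteins act on splicing, decay and translation. The 3′ UTR of VEGFA is known for AU-rich elements and for binding by proteins that control the stability and translation of the message. RBFOX2 is a splicing regulator whose RNA-recognition motif binds UGCAUG and its core GCAUG. In SAC-seq, MjDim1 places an allyl group on m6A and iodine converts it, so that reverse transcription misreads the methylated adenine, and the level is derived from these mutations.

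The sequences around the 4 sites are shown because the motif class and the closeness of the sites are what the values below are read against. They are the plus strand of hg38 written as RNA, 5′ to 3′, with the 5-mer centred on each listed adenine in capitals. Sites 1 and 2 are close enough to share a line.

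Sites 1 and 2, chr6:43785035-43785064: auguauuUGACUgcuguGGACUugaguugg
Site 3, chr6:43785106-43785126: gagaugagAGACUcuggcaug
Site 4, chr6:43785408-43785428: ugccuggaAGAUUcaggagcc

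Sites 1 to 3 are DRACH adenines that share the last 4 bases of their 5-mers, GACU, and differ in the base before it, which is U at site 1, G at site 2 and A at site 3. Site 4 has U in place of C after the adenine and so falls outside DRACH. The 31-nt and the 21-nt sequence around each of the 4 sites occurs exactly once in hg38 (1 copy on both strands together), as the 31-nt sequence does for 224 of the 275 listed sites.

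All 4 VEGFA sites lay in the 3′ UTR. VEGFA (ENSG00000112715.26, chromosome 6, 43770184 to 43786487, plus strand) has 26 transcripts in GENCODE release 44. In the MANE Select transcript (ENST00000672860.3), an mRNA of 3609 nt whose 3′ UTR is 1925 nt long, the listed adenines fell in exon 8, the last exon. Site 1 (position 43785044) lay 482 nt after the stop codon, site 2 (43785054) 492 nt, site 3 (43785116) 554 nt and site 4 (43785418) 856 nt. In relative terms they covered the stretch from 25.0% to 44.5% of the 3′ UTR, and the last of them was still 1069 nt from the annotated end of the mRNA. Each adenine was in the 3′ UTR of 5 transcripts and in an exon of 2 retained-intron transcripts, and the other 19 transcript models did not reach it. None of the 4 was intronic or coding in any VEGFA transcript. The antisense lncRNA gene annotated within VEGFA, ENSG00000272114, ends 14428 nt before the nearest site.

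**Figure D1:**
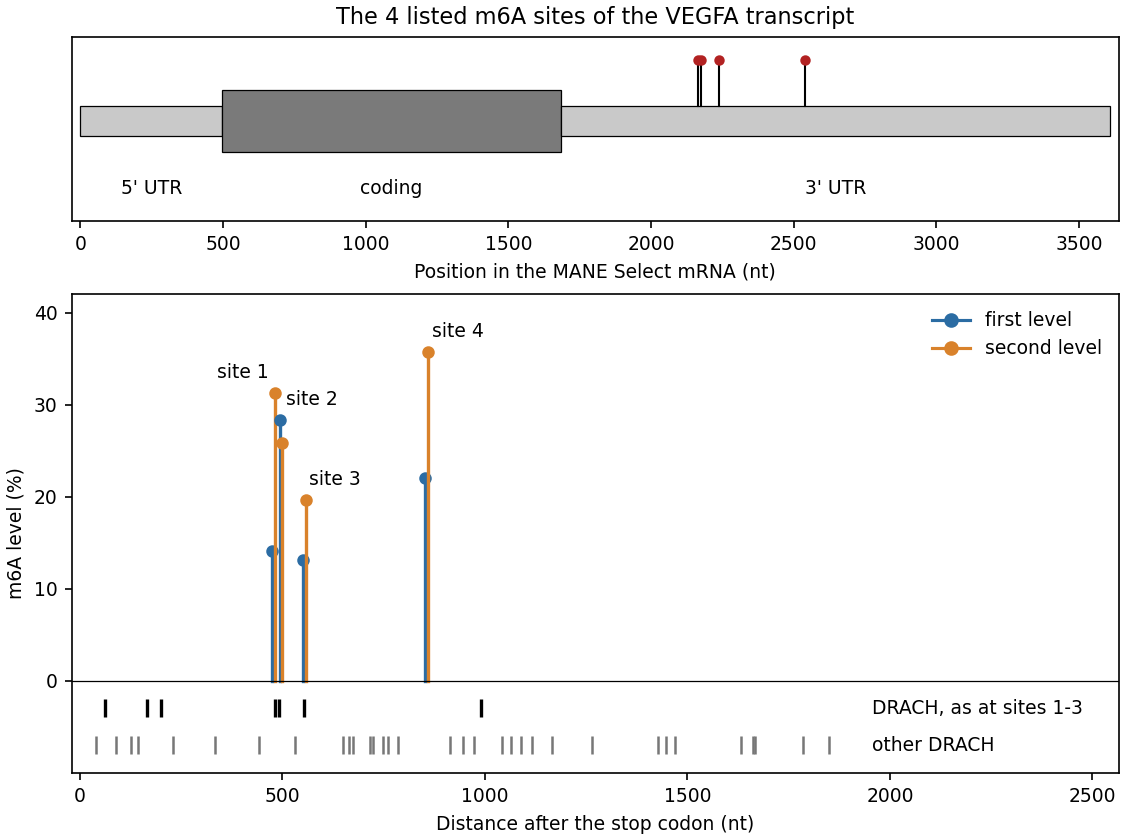
The upper panel draws the VEGFA MANE Select mRNA to scale in nucleotides, with the 4 listed sites as red dots. The lower panel plots the first (blue) and second (orange) m6A level in percent against the distance after the stop codon, with each pair of stems moved apart by a few nucleotides, and ticks mark the 7 DRACH adenines of the 3′ UTR that share the last 4 bases of sites 1 to 3 and the 33 other DRACH adenines. The sites gather between 482 and 856 nt after the stop codon, and no tick of the lower row coincides with a listed site.

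At site 1, the UGACU, the m6A level was listed at 14.1% and 31.3%, a ratio of 2.22. At site 2, the GGACU, it was listed at 28.3% and 25.8%, a ratio of 0.911. Site 3, the AGACU, had levels of 13.1% and 19.6% and a ratio of 1.50. Site 4, the AGAUU outside DRACH, had levels of 22.1% and 35.7% and a ratio of 1.62. Thus the first level was highest at site 2 and the second at site 4, and site 3 was lowest in both.

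The second level was above the first at 3 of the 4 VEGFA sites, where 85.8% of all 275 listed sites and 83.3% of the 90 DRACH sites outside VEGFA had a higher second level. Listed sites had passed a cut-off on mutated reads, which only a high level can pass where reads are few. Whether this selection contributed to these shares was not tested. The median ratio over the VEGFA sites was 1.56, with a range of 0.911 to 2.22, and the median difference was 10.1 percentage points, with a range of -2.53 to 17.2. Over all 275 sites the median ratio was 1.73, with quartiles of 1.17 and 2.68, so the VEGFA median lay inside the middle range of the table. Of the 90 DRACH sites outside VEGFA, 44 (48.9%) had a ratio below the VEGFA median, which includes the non-DRACH site 4. The Wilson 95% interval of that share was 38.8% to 59.0%. This interval covers counting error only and treats sites as independent, although some lie in the same gene, such as MALAT1. The median of the 3 VEGFA DRACH sites alone was 1.50, and 41 of the 90 (45.6%) had a lower ratio, a comparison added after the data were seen.

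**Figure D2:**
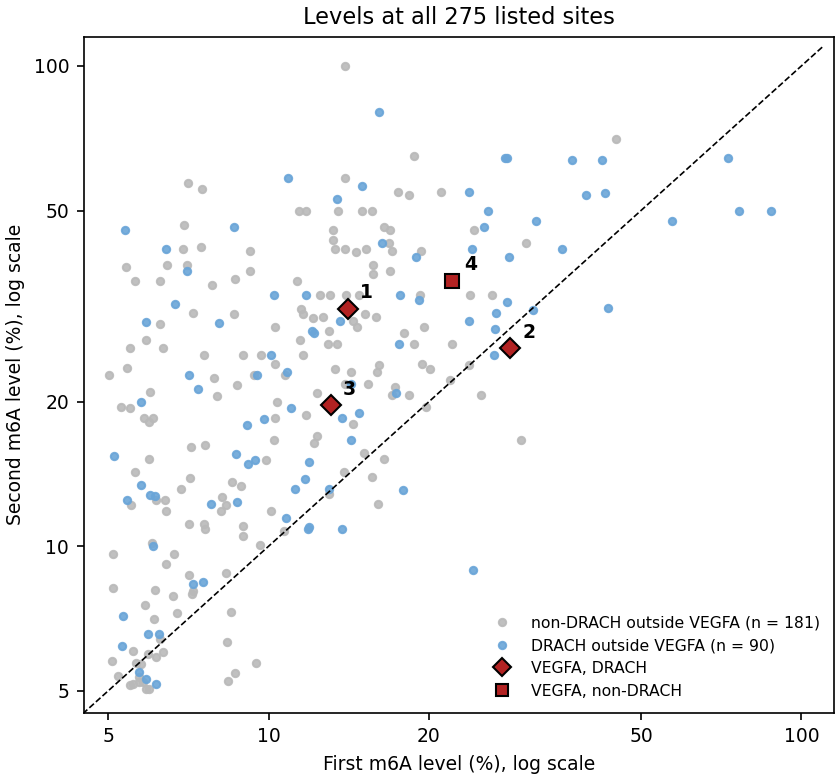
Each point is 1 of the 275 listed sites, with the first m6A level (%) on the x axis and the second (%) on the y axis, both on log scales, and the dashed line marks equal levels. The VEGFA sites (red, numbered) lie among the other sites, with sites 1, 3 and 4 above the line and site 2, listed at 28.3% and 25.8%, below it.

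The levels at VEGFA stood above the lowest values that the table holds, which lie near the study's cut-off on mutation frequency. A cut-off on mutated reads also applied, so the lowest level that could be listed was higher where reads were few. The lowest VEGFA level was 13.1%, against minimums of 5.02% and 5.03% over all sites for the first and second level. Both levels reached that VEGFA minimum at 101 of the 271 sites outside VEGFA (37.3%) and at 39 of the 90 DRACH sites outside it (43.3%).

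Set against its own motif class, each VEGFA site took a different place. Of the 90 DRACH sites outside VEGFA, 63 had a lower ratio than site 1, 10 had a lower ratio than site 2 and 41 had a lower ratio than site 3. For the first level the order changed, with 53 of these 90 below site 1, 78 below site 2 and 49 below site 3. For the second level, 56 were below site 1, 46 below site 2 and 36 below site 3. Site 2 therefore combined a first level in the upper part of its class with a second level near the middle.

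Site 4 was compared with the 181 non-DRACH sites outside VEGFA, of which 172 had a lower first level and 139 a lower second level (76.8%). Its ratio was in the middle of that class, with 81 of the 181 below it (44.8%).

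The comparison was narrowed to sites of the same 5-mer. The 7 UGACU sites outside VEGFA had ratios of 0.921 to 1.82, all below the 2.22 of site 1, while their first levels had a median of 25.4%, above the 14.1% of site 1. The 22 GGACU sites outside VEGFA had a median ratio of 1.55, and 3 of them had a ratio below that of site 2. The 34 AGACU sites had a median ratio of 1.42 and ranged from 0.368 to 5.35, with 18 below site 3. Among the 15 AGAUU sites outside VEGFA the first level ranged from 5.71% to 19.6%, so that all 15 were below the 22.1% of site 4, and 14 of them were below its second level of 35.7%. These places within a class are descriptions of 1 list of sites, and the precision of each value was not estimated.

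**Figure D3:**
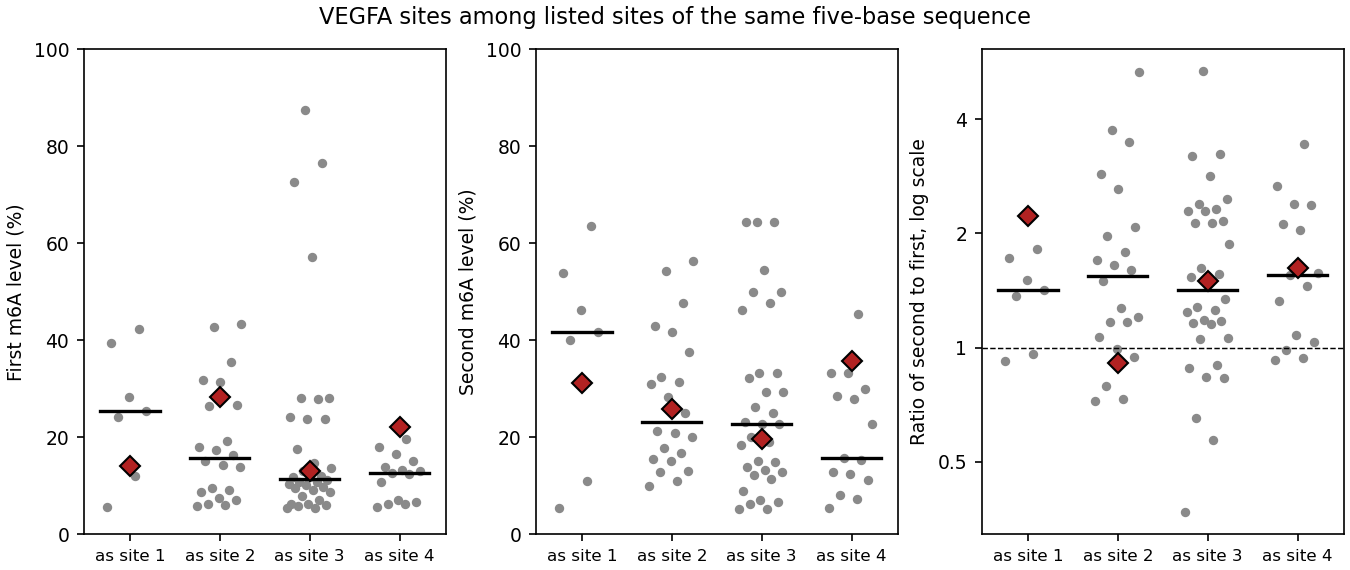
The panels plot the first m6A level (%), the second m6A level (%) and the ratio of second to first (log scale, dashed line at 1) for listed sites grouped by the five-base sequence they share with VEGFA site 1, 2, 3 or 4. Grey points are sites outside VEGFA (7, 22, 34 and 15 sites), black bars are their medians and red diamonds are the VEGFA sites; site 1 lies above all grey points in the ratio and site 4 above all in the first level.

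Sites 1 and 2 lay 10 nt apart, and their ratios fell on opposite sides of 1. The ratio of site 1 was 2.44 times that of site 2, which at 0.911 was close to 1. No error was estimated for either ratio, so the contrast is a description only. Among the other listed sites, 8 pairs of neighbouring sites on the same strand lay within 50 nt of each other, in RPL5, NEAT1, MALAT1, LINC02109, OGT and GABRE. In these the larger ratio was a median of 1.26 times the smaller. The value exceeded that of the VEGFA pair in 1 of the 8, the GABRE pair 9 nt apart (2.49 times), and in 2 of the 8 the ratios lay on opposite sides of 1, with values of 1.18 times in NEAT1 and 1.23 times in MALAT1.

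VEGFA held more listed 3′ UTR sites than any other gene of the table. There were 28 such sites in 21 genes, of which 17 genes had 1 site, OGT and VMP1 had 2 each and CCNL2 had 3. The 24 sites in 3′ UTRs outside VEGFA had median levels of 13.6% and 23.0% and a median ratio of 1.52, against 18.1%, 28.5% and 1.56 for the VEGFA sites. The ratio at these 24 sites ranged from 0.560 to 4.72, which takes in all 4 VEGFA values. Among the 108 protein-coding genes with a listed site, none had more than the 4 of VEGFA, and 1 other, IMMP2L, also had 4, which were intronic and lay up to 163166 nt apart. The VEGFA sites spanned 374 nt. Of all genes with listed sites, MALAT1 was the only other with at least 4 in so short a stretch, with up to 5.

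Most DRACH adenines of VEGFA were not listed. The gene holds 244 of them on its own strand, of which 3 were listed. By the MANE Select transcript, 8 are in the 5′ UTR, 17 in the coding sequence, 40 in the 3′ UTR and 179 outside its exons, and all 3 listed ones were among the 40. Its annotated coding sequence starts at a CUG codon, and a start at a later AUG would move the border between 5′ UTR and coding sequence. The DRACH density was 20.8 per kb in the 3′ UTR, 14.3 per kb in the coding sequence and 32.0 per kb between sites 1 and 4. The borders of that last stretch are listed sites themselves, so its density and counts depend in part on that choice. In it, 12 DRACH adenines were present: 3 ended in GACU and all 3 were listed, while none of the 9 others was. The unlisted GACU adenines of the 3′ UTR lay outside it, at 62, 165, 200 and 990 nt after the stop codon. Over the whole 3′ UTR, 7 DRACH adenines ended in GACU, 3 of them listed, and 33 had other endings, 0 of them listed. An adenine that is not in the table may have lacked reads or methylation, or may have missed a cut-off on mutations. Which of these applied was not tested, nor was whether detection by the assay depends on the bases around the adenine.

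The same split by ending was counted elsewhere, a comparison chosen after the VEGFA sequences were seen. Of the 90 DRACH sites listed outside VEGFA, 63 (70.0%) ended in GACU. In the MANE Select 3′ UTRs of the 20 other genes with a listed 3′ UTR site, 6 of 169 DRACH adenines ending in GACU were listed (3.55%), and 1 of 664 with other endings (0.151%). No one of those 20 3′ UTRs held more than 1 listed DRACH site, where VEGFA held 3. Some sites of these genes lie in the 3′ UTR of other transcripts only and are not counted here.

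GCAUG, the core motif of RBFOX2, occurs 2 times in the VEGFA 3′ UTR, and UGCAUG 0 times. Only site 3 had a whole GCAUG on its own strand within 50 nt, with its first base 6 nt downstream of the listed adenine (the last 5 bases of the site 3 line above). For sites 1 and 2 the same copy was the nearest, 78 and 68 nt away, and for site 4 the nearest ended 220 nt upstream. A GCAUG lay within 50 nt of 33.5% of all 275 listed sites and of 11 of the 24 sites in other 3′ UTRs (45.8%). AGAUG lay on the other side of site 3, ending 5 nt upstream of the adenine. Site 3 was the 1 site of the 227 not centred on AGAUG that had both motifs whole within 10 nt, a pattern singled out after it was seen; 7 of the 227 had AGAUG that close and 13 of the 275 had GCAUG that close.

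AUUUA, the core of AU-rich elements, occurs 10 times in the VEGFA 3′ UTR, and none lay within 50 nt of a listed site. The nearest copies were 122, 132 and 194 nt upstream of sites 1, 2 and 3 and 377 nt downstream of site 4. AUUUA was within 50 nt of 34 of all 275 sites (12.4%) and of 2 of the 24 sites in other 3′ UTRs (8.33%). The GC content of the 101 nt around each site went up along the transcript, from 41.6% at site 1 to 47.5% at site 2, 53.5% at site 3 and 64.4% at site 4. At the 24 sites in other 3′ UTRs it ranged from 24.8% to 60.4%, all below site 4.

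Few genes of any kind were in the table: 108 of the 20046 annotated protein-coding genes (0.539%) held a listed site, so short lists of genes would be likely to hold none. Of 17 genes of the VEGF pathway, which comprised its related ligands (such as VEGFB and PGF), its receptors (FLT1, KDR, FLT4) and co-receptors (NRP1, NRP2) and the hypoxia factors and their regulators that control its transcription (such as HIF1A and VHL), 0 held a listed site. The same was true of 9 genes for proteins that bind or are known to regulate VEGFA mRNA (such as HNRNPL and ELAVL1), with 0, and of 19 genes of the m6A machinery and RBFOX2 itself, with 0. Counts of 0 in lists this short do not set these genes apart from others, and they depend on which genes were listed: HNRNPD, a binder of AU-rich elements that was not on the list and was noticed afterwards, held 1 intronic site. No listed site lay within 100000 nt of VEGFA on either strand. The nearest on the plus strand of chromosome 6 were intronic sites of BLTP3A, 8921249 nt before the gene, and of STXBP5, 103433260 nt after it.

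The protein-coding genes with at least 2 sites whose median levels were nearest to those of VEGFA were ZNF609, OR51B5 and GABRE, by the distance between the pairs of medians in percentage points. ZNF609 had 2 intronic sites with median levels of 13.5% and 27.9%, a distance of 4.60 percentage points. OR51B5 had 3 intronic sites with medians of 16.9% and 33.3%, a distance of 4.95. The 31-nt sequences of these 3 sites have 12671, 1030 and 1 exact copies in hg38, so its medians rest mostly on repeated sequence. GABRE had 2 sites in non-coding exons with medians of 13.2% and 31.5%, a distance of 5.73. None of the 3 had a listed site in a 3′ UTR, so the likeness was one of levels and not of place.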

How the data were processed

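Per the labels, reads were clipped with cutadapt 2.10 and aligned to hg38 with STAR 2.7.3a; by the study's methods, duplicates were removed by molecular identifiers and mutations called with VarScan in pairwise library comparisons, then filtered by reference base, significance, read support, mutation frequency and its difference from untreated RNA. The authors deposited 1 table of 6 columns, with a site name that includes 2 m6A percentages, and the ratio of these levels (second over first). It had 0 further columns of per-sample values. Such filters favour abundant and strongly mutated RNA.

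Sites were parsed with Python 3.11.15, and hg38 sequence was read with pysam 0.24.0 and samtools 1.23.1. Every listed adenine and 5-mer matched hg38. Gene parts came from GENCODE release 44, coding before 3′ UTR, 5′ UTR, other exon and intron. Motif windows used the site's strand and required the whole motif. Exact 31-nt and 21-nt copies were counted on both strands over all hg38 sequences, alternate ones included. Wilson intervals came from scipy 1.17.1. No test was run: each condition had 1 library, and sites are not replicates. The members and gene lists were chosen with earlier results of these data known. The genes named for likeness were the 3 protein-coding genes with at least 2 sites and median levels nearest to VEGFA.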

Additional observations from a re-analysis of the deposited data

How the results depend on the processing

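GCAUG was the motif result that moved: within 100 nt it was present at 3 of the 4 VEGFA sites in place of 1, and UGCAUG within 50 nt at 0. The 3 were sites 1 to 3, all near the same copy. For these settings the share over all listed sites was not counted. At 100 nt that share is above the 33.5% found at 50 nt, so the count of 3 does not set VEGFA apart. Leaving out each VEGFA site in turn gave median ratios of 1.50 to 1.62 around the 1.56 reported, and median differences of 6.57 to 13.6 percentage points around 10.1. The mean difference was 8.71 percentage points, the mean ratio 1.56, the ratio of the summed levels 1.45, and the median with 1 site per cluster 1.50. With 4 sites, no spread is at hand against which such shifts could be judged. The share of other DRACH sites with a ratio below the VEGFA median was 48.9%, 39.2% without MALAT1 and 50.6% among single-copy sequences. Among sites of any motif in exons of protein-coding mRNAs, a different set, it was 47.6% (20 of 42). Taking the motif class from the table, or giving introns priority, could not change a value, because the classes matched the sequence and no VEGFA site was intronic. No error was estimated for any level: no coverage was listed, depth was not worked back from the percentages, and each condition had 1 library. Some levels may rest on few reads. A further gene annotation was not used here.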
